A study of Mus musculus with 26 samples.

Results

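C1d, Clp1 and Nop2 are 3 of the 38540 transcripts counted in single mouse germinal vesicle (GV) oocytes, and they encode proteins that act in RNA maturation. C1d was taken as the transcript TCONS_00014662, and the others as the transcripts that carry the symbols Clp1 (TCONS_00061075) and Nop2 (TCONS_00085979) in the study's lists. C1d and Clp1 stand in the list of transcripts missing from many SN oocytes, and C1d and Nop2 stand in the list used to classify oocytes by stage. Both lists were chosen on the NSN and SN counts of these same oocytes. The second was also limited to genes reported from an earlier bulk RNA-seq comparison of the stages. The 3 transcripts were therefore selected on the measured stage difference, which is given below as a description and with no test.

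The study sequenced RNA of single fully grown GV oocytes to compare stages of nuclear organisation. The oocytes came from the ovaries of 2 wildtype C57Bl6/Babr mice, 12 weeks old, and cumulus cells had been taken off. The labels do not name the mice, and the letter C or D of each oocyte was read as its mouse. Each nucleus was stained with Hoechst and scored by the chromatin ring around the nucleolus, which NSN (non-surrounded nucleolus) oocytes lack, SN (surrounded nucleolus) oocytes show in full and intermediate oocytes show in part. Polyadenylated RNA was captured on oligo-dT beads and amplified, without treatment of the animals and without molecular identifiers. There were 9 NSN oocytes (5 of mouse C, 4 of mouse D), 16 SN oocytes (9 of mouse C, 7 of mouse D) and 1 intermediate oocyte of mouse D. All groups thus share strain, genotype and age, each holds oocytes of the same 2 animals at most, and tests over oocytes measure the spread between oocytes of these animals.

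RNA maturation turns primary transcripts into working RNA. The nuclear exosome is a complex that trims and degrades RNA from its 3' end, and C1D is a small nuclear protein that binds it together with its catalytic subunit EXOSC10 and helps to finish the small ribosomal RNA of the large subunit. CLP1 is a kinase that phosphorylates RNA at its 5' end. It is part of the cleavage factor that acts at polyadenylation sites of messenger RNA and of the endonuclease complex that splices transfer RNA. NOP2 is a nucleolar methyltransferase that modifies the large ribosomal RNA and is needed for assembly of the large ribosomal subunit. Growing oocytes make and store large amounts of RNA, and transcription is silenced around the change from NSN to SN.

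C1d lies on chromosome 11 of GRCm38, from 17257579 to 17269176 on the plus strand, with 5 exons (ENSMUSG00000000581). Its reference transcript in GENCODE M21 has 2981 bases, of which 423 are coding. Clp1 lies on chromosome 2, from 84722104 to 84727350 on the minus strand, with 3 exons, 1912 bases in its reference transcript and 1275 coding bases (ENSMUSG00000027079). Nop2 lies on chromosome 6, from 125131909 to 125144753 on the plus strand, with 16 exons, 2597 bases in its reference transcript and 2382 coding bases (ENSMUSG00000038279). No other annotated gene overlaps any of them, and the nearest neighbours are Wdr92 at 23783 bp from C1d, Ypel4 at 6708 bp from Clp1 and Iffo1 at 488 bp from Nop2. The exons that were counted for each TCONS transcript are not given in the sources used here.

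The promoters are shown as a description of the start regions of the 3 genes. The 3 transcripts were selected on the stage difference, and any part of the promoters in it was not tested. RefSeq windows (GRCm38.p6) run from 250 bases before to 50 bases after a RefSeq start, and the bases before the earliest start annotated in GENCODE or RefSeq are printed 5' to 3' on the strand of the gene. The start behind the C1d window, 17257688, lies inside the gene, so that 191 of its 300 bases are genic, against 113 in Clp1 and 50 in Nop2. They cover chr11:17257438-17257546 (plus strand) for C1d, chr2:84727351-84727537 (minus strand) for Clp1 and chr6:125131633-125131882 (plus strand) for Nop2. Capitals mark GGGCGG or its reverse complement CCGCCC and, in Nop2, CACGTG and CCGGAAG.
C1d: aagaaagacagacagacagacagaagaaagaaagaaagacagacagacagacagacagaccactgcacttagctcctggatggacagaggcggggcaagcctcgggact
Clp1: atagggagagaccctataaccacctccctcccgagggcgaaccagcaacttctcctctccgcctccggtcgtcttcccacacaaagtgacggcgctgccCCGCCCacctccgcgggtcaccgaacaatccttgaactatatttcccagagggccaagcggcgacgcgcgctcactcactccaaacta
Nop2: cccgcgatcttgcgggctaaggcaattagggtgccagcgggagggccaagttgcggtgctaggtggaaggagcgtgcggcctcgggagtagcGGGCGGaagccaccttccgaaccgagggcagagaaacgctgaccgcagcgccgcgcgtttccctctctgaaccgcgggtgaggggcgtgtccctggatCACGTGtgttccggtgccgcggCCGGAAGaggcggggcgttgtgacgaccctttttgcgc
Each motif was searched on both strands of the whole window of 300 bases. GGGCGG, the core of GC boxes, occurred in the windows of all 3 genes, in C1d within the genic bases that are not printed, and in 35.6% of 32817 promoter windows. CACGTG, an E-box, occurred in Nop2 only of the 3 and in 7.15% of all windows, and CCGGAAG, an ETS type site, in Nop2 only and in 8.86%. TATAAA (13.6% of windows), CCAAT (37.4%) and TGACGTCA (1.79%) occurred in none of the 3. All 3 windows, genic bases included, were rich in CpG, with 26 sites in C1d, 26 in Clp1 and 35 in Nop2. The ratio of observed to expected CpG was 1.01, 1.09 and 1.09, against a median of 0.383 over all windows, and GC content was 58.7%, 57.7% and 66.0%. These matches describe letters and not bound sites.

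Values are reads counted over each transcript, as deposited and without normalization. NSN oocytes had total counts of 1886716 to 2983344 (median 2690652). SN oocytes spread wider, from 1358383 to 3647827 (median 2069699), and the total of the intermediate oocyte was 2163635. Levels are given as CPM, the count scaled to the total of the oocyte. A count of 0 is read as below the depth of the library, since it allows up to 3 counts, which is 0.822 to 2.21 CPM in SN and 1.01 to 1.59 CPM in NSN oocytes, for counting error only. Of 18 oocyte marker genes, 5 had a named transcript, all from lists chosen on these oocytes, and all 5 had counts in every oocyte. By edgeR 3 were called lower in SN oocytes and 2 higher. Of all 16657 transcripts tested, 8.07% were called lower and 13.5% in either direction. Since the 5 were selected on this difference, nothing is read from the count. Mean levels ± SD (n = 9 NSN and 16 SN) were 3797 ± 875 and 2420 ± 604 CPM for Zp3, 577 ± 102 and 403 ± 73.8 CPM for Nobox, and 42.2 ± 6.92 and 19.9 ± 4.64 CPM for Nlrp4c. They were 534 ± 161 and 893 ± 245 CPM for Oosp1, and 511 ± 230 and 894 ± 251 CPM for Oosp3. Of 12 granulosa and cumulus cell markers only Amh and Hsd3b1 had a named transcript. Their summed level was 0.372 to 14.1 CPM in NSN (median 5.27) and 0 to 16.3 CPM in SN oocytes (median 0.572), where 7 of 16 were at 0. Amh had 0 counts in 2 of 9 NSN and 12 of 16 SN oocytes. Both markers were named through the list of transcripts missing from SN oocytes, and their part in the results below was not tested.

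C1d, the exosome cofactor, was the scarcest of the 3 transcripts in count at both stages. In NSN oocytes of mouse C it had 4, 5, 7, 9 and 14 counts, and in those of mouse D it had 5, 6, 20 and 25. These correspond to 1.34 to 9.85 CPM, with a median of 2.70 CPM. In SN oocytes it ran from 0 to 3 counts with a median of 0.5, which is 0 to 1.60 CPM with a median of 0.209 CPM. No count was found in 8 of 16 SN oocytes, 1 count in 2, 2 counts in 5 and 3 counts in 1. The stages overlapped in a narrow band, since oocyte D-28, the highest SN oocyte, lay above oocyte C-7, the lowest NSN oocyte. Of the SN oocytes, 14 of 16 lay below every NSN oocyte, and 8 of 9 NSN oocytes lay above every SN oocyte. In this comparison edgeR called 8.07% of all 16657 transcripts tested lower in SN and 13.5% in either direction. How many of all transcripts keep the stages apart to this degree was not counted. The NSN mean was 4.03 ± 2.86 CPM (SD, n = 9) and the SN mean 0.465 ± 0.557 CPM (SD, n = 16). Over the summed counts, 95 in NSN and 15 in SN oocytes, the level was 9.71 times as high in NSN oocytes (exact 95% interval 5.60 to 18.02, counting error only).

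Clp1, the RNA kinase of 3' end formation and transfer RNA splicing, had more counts than C1d at both stages. NSN oocytes of mouse C had 7, 13, 19, 21 and 22 counts, and those of mouse D had 9, 20, 21 and 28. The NSN range was thus 2.46 to 10.4 CPM with a median of 7.40 CPM. In SN oocytes Clp1 ran from 0 to 12 counts with a median of 0.5, which is 0 to 5.01 CPM with a median of 0.274 CPM. Again 8 of 16 SN oocytes had no count. The only SN oocyte inside the NSN range was C-9, with 12 counts, while the next highest SN oocyte reached 2.16 CPM. The other 15 of 16 lay below every NSN oocyte, and 7 of 9 NSN oocytes lay above every SN oocyte. The share of all transcripts with such a separation was not counted. The NSN mean was 6.73 ± 2.36 CPM (SD, n = 9) and the SN mean 0.837 ± 1.33 CPM (SD, n = 16). The latter was 0.560 ± 0.765 CPM (SD, n = 15) without oocyte C-9. Summed counts, 160 in NSN and 35 in SN oocytes, gave a level 7.01 times as high in NSN oocytes (exact 95% interval 4.84 to 10.4, counting error only).

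Nop2, the ribosomal RNA methyltransferase, was detected in every oocyte. NSN oocytes of mouse C had 19, 25, 39, 41 and 44 counts, and those of mouse D had 33, 45, 46 and 70. This is 7.33 to 26.0 CPM with a median of 15.7 CPM. In SN oocytes it ran from 5 to 26 counts with a median of 10.5, which is 2.10 to 10.8 CPM. SN oocytes C-9, C-17 and D-10 lay inside the NSN range, and 13 of 16 lay below every NSN oocyte. Above every SN oocyte lay 7 of 9 NSN oocytes, and here too the share of all transcripts with such a separation was not counted. The NSN mean was 15.4 ± 5.51 CPM (SD, n = 9) and the SN mean 5.33 ± 2.63 CPM (SD, n = 16). Its summed counts of 362 and 187 gave a level 2.97 times as high in NSN oocytes (exact 95% interval 2.48 to 3.56, counting error only).

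**Figure D1:**
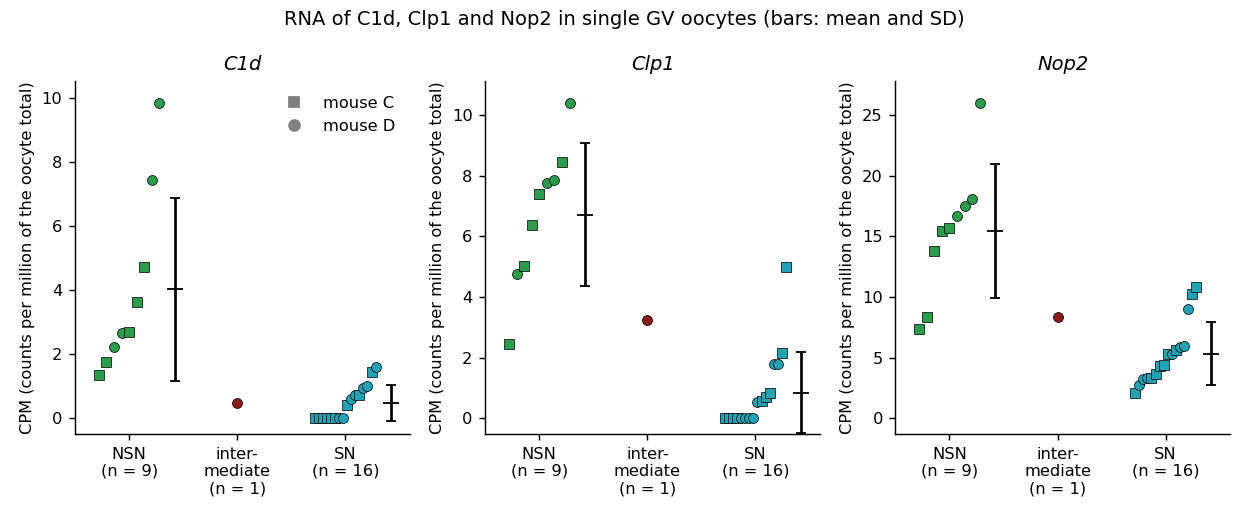
CPM of C1d, Clp1 and Nop2 (y axis) in each of the 9 NSN, 1 intermediate and 16 SN oocytes (x axis), with squares for mouse C, circles for mouse D, and black bars for mean and SD. SN oocytes of C1d end at 1.60 CPM and those of Nop2 at 10.8 CPM, and a single SN oocyte of Clp1 stands at 5.01 CPM, inside the NSN range.

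Oocyte C-9 was the highest SN oocyte for both Clp1 and Nop2, and it had 1 count of C1d. It also had the highest summed level of the 2 granulosa markers among SN oocytes, 16.3 CPM. Among NSN oocytes the highest summed level was 14.1 CPM, in oocyte C-8, which had 14 counts of C1d, 22 of Clp1 and 41 of Nop2. Without C-9, the SN mean of Nop2 was 4.96 ± 2.25 CPM (SD, n = 15) and that of C1d 0.469 ± 0.576 CPM (SD, n = 15). The part of the markers in these values was not tested.

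The rank of each transcript among the 28306 counted at least once over the 25 oocytes moved with its level. C1d stood at percentile 56.0 of mean CPM in NSN oocytes and 36.1 in SN oocytes, Clp1 at 61.8 and 41.9, and Nop2 at 71.2 and 60.8. These percentiles include transcripts too scarce to be tested, since 16657 of the 28306 were tested, and they are not ranks among those tested. Levels of different genes are compared per length, as mean CPM per kilobase of the reference transcript. The length that was counted may differ from it, since the exons behind each TCONS transcript are not given in the sources used here. In NSN oocytes C1d had 1.35 ± 0.959, Clp1 3.52 ± 1.23 and Nop2 5.95 ± 2.12 CPM per kilobase (SD, n = 9). In SN oocytes the values were 0.156 ± 0.187, 0.438 ± 0.698 and 2.05 ± 1.01 CPM per kilobase (SD, n = 16). The order was the same at both stages, and at each stage the intervals of mean ± SD of neighbours in this order overlapped.

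C1d and Clp1 each had no count in 8 of 16 SN oocytes. Neither transcript had a count in 3 of 16 SN oocytes, 5 lacked C1d only, 5 lacked Clp1 only, and 3 had both. By mouse, C1d had no count in 6 of 9 SN oocytes of mouse C and 2 of 7 of mouse D, whereas Clp1 had none in 4 of 9 and 4 of 7. The depth of the oocytes differed between these sets for Clp1: those without a count had a median total of 1774974 and those with a count 2605556. For C1d the medians were 2069910 and 2069699. Oocyte C-14, the deepest SN library, had no count of either transcript. The list of transcripts missing from SN oocytes, on which C1d and Clp1 stand, asks for a count in 7 or more NSN oocytes and for none in 10 or more SN oocytes. In the deposited counts neither transcript meets this, with a count in all 9 NSN oocytes but no count in only 8 SN oocytes, and whether the list rests on other counts is not given in the sources used here. With at most 1 count read as absence, both transcripts reached 10 SN oocytes, and after random downsampling of every oocyte to the smallest total C1d had no count in 10 and Clp1 in 12.

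**Figure D2:**
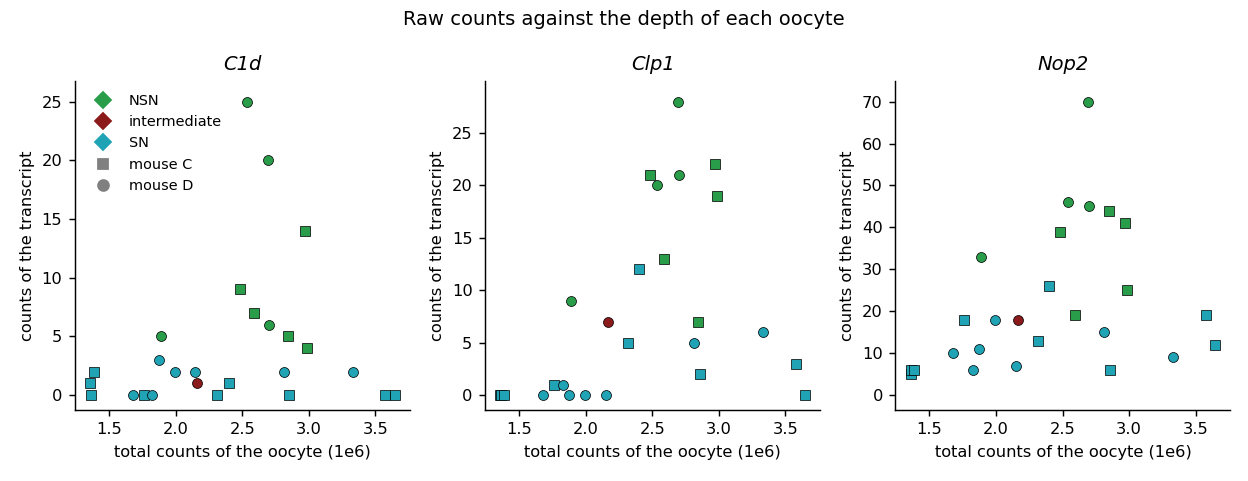
Raw counts of each transcript (y axis) against the total counts of the oocyte (x axis, in units of 1e6 counts), with NSN oocytes in green, SN oocytes in blue, the intermediate oocyte in dark red, squares for mouse C and circles for mouse D. The SN oocytes without a count of C1d reach up to the deepest library of 3647827 counts, and SN oocytes below the smallest NSN total of 1886716 counts have at most 3 counts of C1d and at most 1 of Clp1.

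In the edgeR fit across all transcripts, C1d had a log2 fold change from NSN to SN of -3.05 (SE 0.505), Clp1 of -2.74 (SE 0.459) and Nop2 of -1.50 (SE 0.237). Of the 16657 transcripts tested, 30 had a lower log2 fold change than C1d, 50 lower than Clp1 and 377 lower than Nop2, and the median of all was 0.01. C1d passed the filter on low counts almost wholly through NSN oocytes, since all 9 of them but only 1 SN oocyte had at least 3 counts, and for Clp1 this was 9 and 5. Nop2 had at least 3 counts in all 25 oocytes. SN oocytes had 0 to 3 counts of C1d. How far the fitted fold change of C1d rests on the small count that edgeR adds was not tested. The ratio of summed counts uses no added count, but its interval covers counting error only and not the spread between oocytes.

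**Figure D3:**
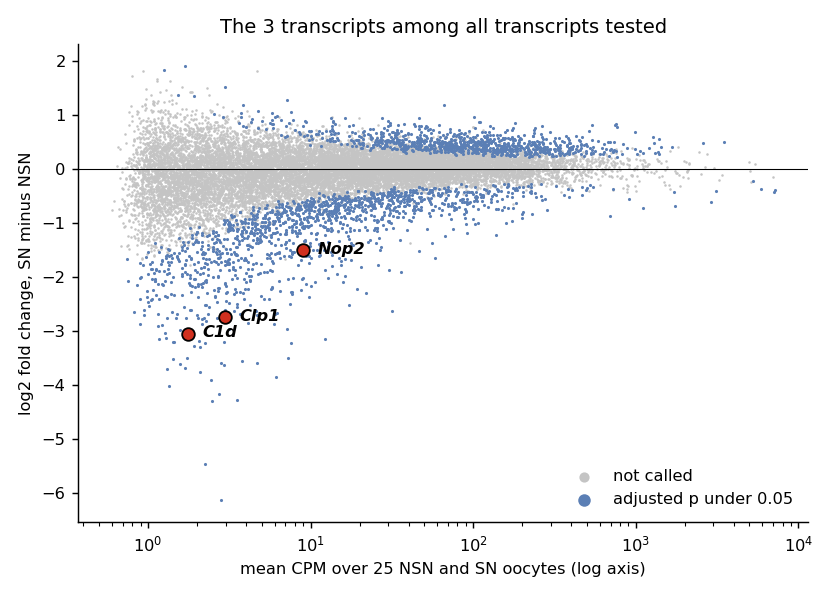
Log2 fold change from NSN to SN (y axis) against mean CPM over 25 oocytes (x axis, log scale) for the 16657 transcripts tested, with those past an adjusted p of 0.05 in blue and the 3 RNA maturation transcripts in red. C1d (-3.05) and Clp1 (-2.74) lie near the lower edge of the cloud at low abundance, and Nop2 (-1.50) lies lower than most transcripts of its abundance.

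The stage difference was negative for all 3 transcripts in both animals. From mouse C oocytes alone, the log2 fold change was -3.45 (SE 0.742) for C1d, -2.34 (SE 0.613) for Clp1 and -1.11 (SE 0.325) for Nop2. From mouse D oocytes alone it was -2.86 (SE 0.636), -3.32 (SE 0.628) and -1.93 (SE 0.310). With SN oocytes limited to the 6 of 16 whose totals lay inside the NSN range, Clp1 shifted to -1.98 (SE 0.505), over 1.5 times less in fold than with all SN oocytes, while C1d had -2.89 (SE 0.633) and Nop2 -1.33 (SE 0.320). Oocyte C-9 held 12 of the 24 Clp1 counts in these 6. Without C-9, an alternative chosen after seeing the data, the other 5 gave -2.70 (SE 0.525) for Clp1, -2.85 (SE 0.689) for C1d and -1.59 (SE 0.335) for Nop2. After random downsampling of all oocytes to the smallest total, Clp1 had -3.31 (SE 0.550), C1d -3.02 (SE 0.549) and Nop2 -1.63 (SE 0.246).

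**Figure D4:**
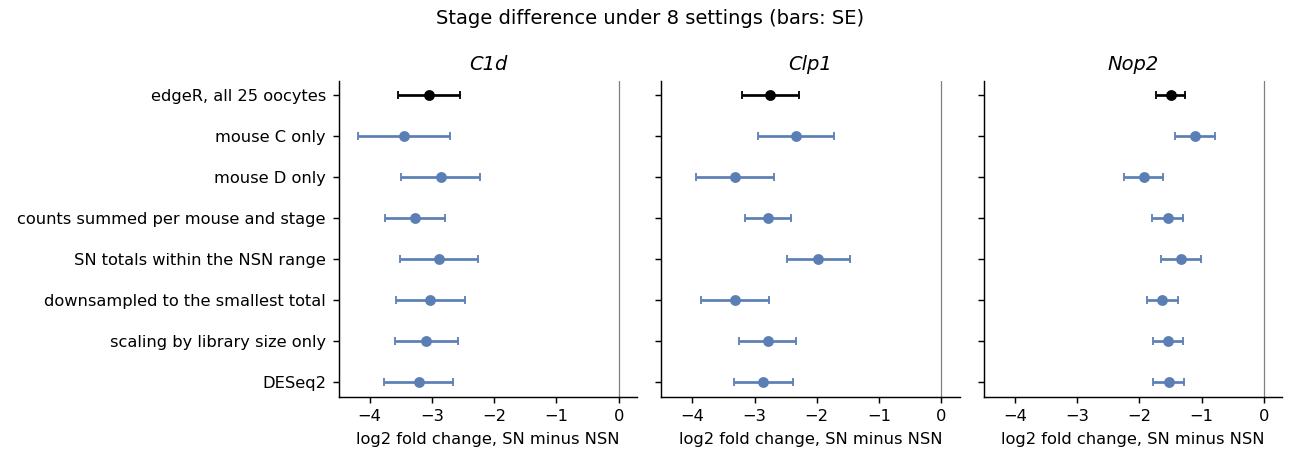
Log2 fold change from NSN to SN (x axis) with its SE (bars) for each transcript, in the fit of all 25 oocytes (black) and in 7 alternatives (blue). Every point lies below 0, and that of Clp1 with SN totals inside the NSN range (-1.98) is the nearest to 0 for that transcript.

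Whether the levels differed between the 2 animals was not used in choosing the transcripts, and it was tested with edgeR with stage as a second term. C1d was higher in mouse D by a log2 fold change of 1.15 (SE 0.493), which did not pass the adjustment over all transcripts (unadjusted p = 0.0258, adjusted p = 0.385 from edgeR). In this comparison 6 of 16657 transcripts (0.036%) were called, and none of the 3 was among them. An unadjusted p under 0.05 from edgeR was found for 1784 transcripts (10.7%). Mean C1d in NSN oocytes was 2.83 ± 1.37 CPM (SD, n = 5) in mouse C and 5.54 ± 3.72 CPM (SD, n = 4) in mouse D, and in SN oocytes 0.289 ± 0.507 CPM (SD, n = 9) and 0.693 ± 0.570 CPM (SD, n = 7). The difference of mouse D from mouse C was -0.04 on the log2 scale for Clp1 (SE 0.466), with an edgeR adjusted p of 0.989. For Nop2 it was 0.22 (SE 0.243), with an edgeR adjusted p of 0.810. Since each side is 1 animal, this compares the oocytes of these 2 mice and not mice in general.

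The values of Nop2 by animal and stage are given as a description. In NSN oocytes the 4 of mouse D ran from 16.7 to 26.0 CPM and the 5 of mouse C from 7.33 to 15.7 CPM. How many of all transcripts have ranges apart in this way was not counted. The mouse difference of Nop2 in NSN oocytes alone was 0.67 on the log2 scale (SE 0.289). It did not pass (unadjusted p = 0.0340, adjusted p = 0.798 from edgeR). In SN oocytes the means were 5.06 ± 2.21 CPM (SD, n = 7) in mouse D and 5.53 ± 3.02 CPM (SD, n = 9) in mouse C. The test of the interaction of stage and mouse gave a log2 difference of -0.84 (SE 0.472) for Nop2, which did not pass (unadjusted p = 0.0839, adjusted p = 0.838 from edgeR). For C1d the interaction was 0.57 (SE 0.838; edgeR adjusted p = 0.954) and for Clp1 -1.002 (SE 0.984; edgeR adjusted p = 0.919). With edgeR, 0 of 16657 transcripts (0%) were called for this interaction, and 994 had an unadjusted p under 0.05.

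The intermediate oocyte, D-15, lay inside the SN range for C1d, and between the lowest NSN and the highest SN oocyte for Clp1 and Nop2. It had 1 count of C1d (0.462 CPM, exact 95% interval 0.0117 to 2.58 CPM), below all 9 NSN oocytes and inside the SN range. It had 7 counts of Clp1 (3.24 CPM, interval 1.30 to 6.67 CPM), where 1 NSN oocyte and 15 SN oocytes were lower. It had 18 counts of Nop2 (8.32 CPM, interval 4.93 to 13.1 CPM), which lies in the band that both stages share. The 3 intervals cover counting error only, and with 1 oocyte there is no spread to compare.

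The spread of counts among oocytes of a stage was described by chi-square per degree of freedom against equal CPM, where 1 is the spread of independently counted reads. Reads amplified without molecular identifiers are not independent, and with about 1 count per oocyte the value for C1d in SN oocytes cannot be ranked with those of transcripts with more counts. It was 5.37 for C1d, 2.19 for Clp1 and 5.38 for Nop2 among NSN oocytes, and 1.48, 4.28 and 3.03 among SN oocytes. The biological coefficient of variation that edgeR estimated with stage as the only term was 0.596 for C1d, 0.618 for Clp1 and 0.353 for Nop2, against a median of 0.281 over all transcripts tested. C1d and Clp1 stood at percentiles 89.2 and 90.4 of this measure and Nop2 at 65.3. The trend that edgeR fitted over abundance was 0.566 at the level of C1d, 0.468 at that of Clp1 and 0.323 at that of Nop2. C1d and Nop2 thus lay close to the value for their abundance, and Clp1 lay further above it.

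The 3 transcripts did not follow each other closely from oocyte to oocyte once the stage means were removed. Pearson's r of log2 CPM over 25 oocytes was 0.04 between C1d and Clp1, 0.29 between C1d and Nop2 and 0.29 between Clp1 and Nop2. These points share library depth and animal, and no p is given. Within NSN oocytes alone (n = 9) the values were 0.60, 0.58 and 0.37, and within SN oocytes alone (n = 16) -0.20, 0.10 and 0.27, in the same order. In SN oocytes most values of C1d and Clp1 are 0 to 3 counts, so that r has little to rest on there.

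**Figure D5:**
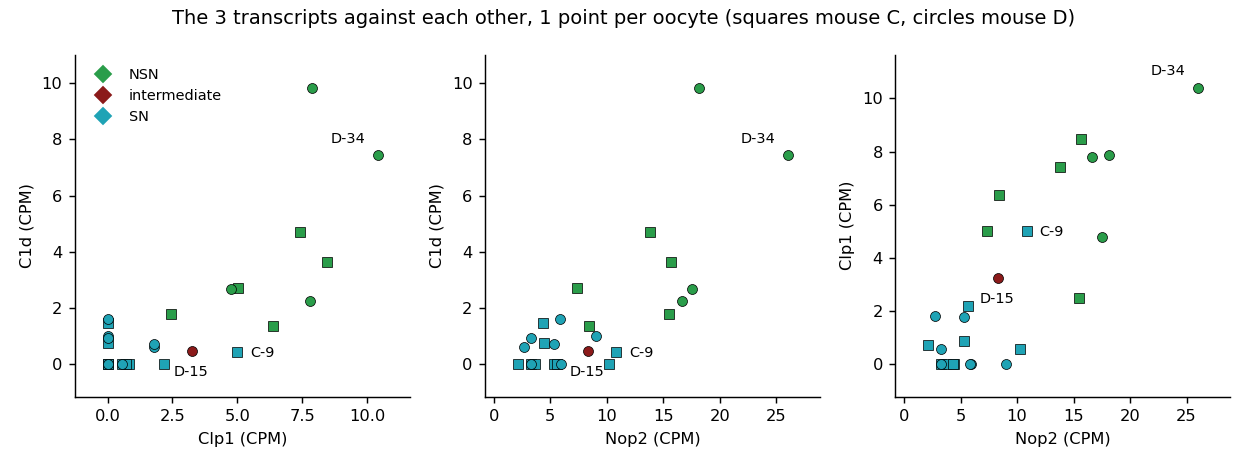
CPM of each transcript against another, 1 point per oocyte, with NSN oocytes in green, SN oocytes in blue, the intermediate oocyte D-15 in dark red, squares for mouse C and circles for mouse D. NSN oocyte D-34 is the highest for Nop2 (26.0 CPM) and Clp1 (10.4 CPM), and SN oocyte C-9 lies apart from the other SN oocytes in Clp1 (5.01 CPM).

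Transcripts with the most similar pattern across oocytes were sought among the 208 tested transcripts that have a symbol and average 3 counts or more, again with stage means removed (Pearson's r over 25 oocytes, description only). For C1d they were Zc3hc1 (0.61), Tusc2 (0.59) and Uqcrc1 (0.58). For Clp1 they were Nop16 (0.57), a nucleolar protein of ribosome biogenesis, Snrpb (0.54), a core protein of the spliceosome, and Tspan15 (0.54). For Nop2 they were Uqcrc1 (0.52), a subunit of respiratory complex III, BC003965 (0.48) and Psmc5 (0.47), a subunit of the proteasome. These are the highest of 208 values each, and they share depth and animal.

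Of the other genes of RNA maturation few could be followed, because 511 of 38540 transcripts had a symbol and most symbols came from lists chosen on these oocytes. Of 27 genes of the nuclear exosome and its cofactors and of 25 genes of messenger RNA 3' end processing, C1d and Clp1 respectively were the only ones with a named transcript. Of 11 genes of transfer RNA splicing, Clp1 and Tsen15 were named. Tsen15, a structural subunit of the splicing endonuclease, had 0 to 5 counts (1.16 ± 0.598 CPM, SD, n = 9) in NSN and 0 to 3 counts (0.144 ± 0.297 CPM, SD, n = 16) in SN oocytes, and it was too scarce to be tested.

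Of 86 genes of ribosome biogenesis and ribosomal RNA modification, 4 were named and tested. By edgeR 3 were called lower in SN oocytes, Nop2 among them, and 0 higher, and since these 3 were selected on this difference nothing is read from the count. Leaving Nop2 aside, Coil, the Cajal body protein coilin, averaged 17.3 ± 3.88 CPM (SD, n = 9) at the NSN stage against 7.19 ± 1.86 CPM (SD, n = 16) at the SN stage, which is -1.20 on the log2 scale (SE 0.161). Nop16 averaged 3.42 ± 2.62 CPM (SD, n = 9) against 0.414 ± 0.701 CPM (SD, n = 16), which is -2.69 on the log2 scale (SE 0.527). Coil and Nop16 stand in the study's lists, so their direction is no independent evidence. Ftsj3, a nucleolar ribosomal RNA methyltransferase like Nop2, was in none of those lists and averaged 126 ± 37.1 CPM (SD, n = 9) against 120 ± 42.5 CPM (SD, n = 16). Its log2 fold change was -0.02 (SE 0.176), with an edgeR adjusted p of 0.972, so no difference beyond the spread between oocytes was found for the 1 gene of the list that was not chosen on these counts.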

How the data were processed

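RNA of 26 single GV oocytes was measured. The authors trimmed reads with Trim Galore, aligned them to GRCm38 with HISAT2 2.1.0 and used SeqMonk to count them over a transcriptome of mouse oocytes. The deposited values are the raw counts of each transcript. Strand use in the counting is not given in the sources used here. A deposited table of the authors' own stage comparison (fold changes and p-values) was not used. Of the sample columns, 0 were left out. Stage and mouse were taken from the labels, where the letter C or D of each oocyte was read as its mouse.

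Transcripts that reached 3 counts in 9 or more oocytes were fitted with edgeR 4.0.16 (TMM scaling, quasi-likelihood, Benjamini-Hochberg adjustment, threshold 0.05). The stage fit had stage as its only term and compared 9 NSN with 16 SN oocytes, without the intermediate oocyte. SEs follow from the quasi-F statistic. Log2 CPM for correlations used a prior count of 2. Intervals of single counts and of ratios of summed counts are exact binomial intervals. DESeq2 1.42.0, R 4.3.3, Python 3.11.15, numpy 2.4.6, scipy 1.17.1, pandas 2.3.3 and matplotlib 3.10.9 were also used, and the fits were tested on simulated data. Among 156 pairs of oocytes of a stage, 0 were identical, and chi-square per degree of freedom ran from 2.78 to 21.6.

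Symbols came from the study's lists (366 transcripts) and from GENCODE M21 (145), and promoters from RefSeq. The transcripts and gene lists were chosen with earlier results of these data known. Named genes are the 3 transcripts, every gene of the RNA maturation lists with a named tested transcript, and for each of the 3 the 3 named transcripts most like it with a mean of at least 3 counts. Tsen15, which was too scarce to be tested, and the cell type markers given were chosen beyond this rule after their values were seen. Blood markers (5 genes) had no named transcript. Alternatives covered the scaling, the filter, the tool, the mouse, depth and each left-out oocyte. Some replicate numbers occur under both letters, but the labels do not pair such oocytes. Since both mice gave NSN and SN oocytes, fits with mouse as a second term and with counts summed per mouse and stage were made. Protein sequences and bisulphite data were not analysed here.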

Additional observations from a re-analysis of the deposited data

Results flagged for a closer look

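Among 15 groups of 4 to 9 oocytes (each transcript in each stage and mouse, and each transcript in NSN oocytes as a whole), 2 oocytes stood apart from the rest of their group by Dixon's test at 95%, and chance flags about 1 in 20 groups. Clp1 reached 5.01 CPM in oocyte C-9 among the 9 SN oocytes of mouse C. Nop2 reached 26.0 CPM in oocyte D-34 among the 4 NSN oocytes of mouse D, where the other values ran from 16.7 to 18.1 CPM. Without it the mean of Nop2 over NSN oocytes was 14.1 ± 4.09 CPM (SD, n = 8).

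The intermediate oocyte was in no comparison. It had 7 counts of Clp1 and 18 counts of Nop2, both above the 3 counts that a count of 0 allows, and 1 count of C1d, which is not.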

How the results depend on the processing

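The stage differences of C1d, Clp1 and Nop2 kept their direction in all 36 alternatives run for each, 1 of them chosen after seeing the data, from -3.45 to -2.77, from -3.32 to -1.98 and from -1.93 to -1.11 on the log2 scale, of which leaving out 1 oocyte gave -3.29 to -2.77, -3.23 to -2.62 and -1.61 to -1.37. Since the transcripts were selected on this difference, that is a description. No mouse difference or interaction of the 3 passed the threshold under any alternative with an adjusted p. Signs turned in 3 cases: the mouse difference of Clp1 was 0.37 (adjusted p = 0.918 from edgeR) in NSN oocytes alone, that of Nop2 was -0.15 (adjusted p = 0.920 from edgeR) in SN oocytes alone, and the interaction of C1d was -0.28 (SE 4.57) after downsampling. The same downsampling moved the interaction of Clp1 from -1.002 to -3.09 (SE 1.27, unadjusted p = 0.0198, adjusted p = 0.804 from edgeR). Over the alternatives the adjusted p of the mouse difference ran from 0.841 to 0.994 for Clp1 and from 0.720 to 0.920 for Nop2. For the turned signs the cause was not tested. DESeq2 gave no adjusted p for the mouse difference of any of the 3. With mouse as a second term the stage differences were -3.10, -2.75 and -1.48. With counts summed per mouse and stage and mouse as a block, they were -3.27, -2.78 and -1.54. Depth limits C1d and Clp1 in SN oocytes, where a level under 0.822 to 2.21 CPM cannot be told from absence, and 2 animals limit what the tests over oocytes can say about mice.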
